A study of Mus musculus with 6 samples.

Results

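The 379 protein-coding genes whose midpoint lies within 10 Mb of Dkk3 on mouse chromosome 7 (GRCm39, 101715224 to 121758264) were examined in cultured pancreatic acini with and without the gene. They were chosen by position, biotype and name. Of 386 coding genes in this stretch, Dkk3 itself and 6 ribosomal, mitochondrial ribosomal or respiratory-chain genes were set aside. The region was examined for Acsm3, Eri2, Far1 and Itpripl2 with earlier results of these data known. Their values are therefore not independent of that choice. The table of the whole series listed 56953 genes, of which 21797 were protein coding. Of the 379 flanking genes, 232 had no count in any library, 200 of them olfactory receptors, which are expressed mainly in the nose. Another 39 had counts below the expression filter, and 108 were tested. The text keeps these 3 sets apart, since a gene that was high in 1 group alone could pass the filter. With a filter blind to the groups (a mean of at least 1 CPM, the normalised read count relative to the scaled library total), 101 were tested.

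Dickkopf-3 (DKK3) is a secreted glycoprotein, and the study asked whether it protects acinar identity during acinar-to-ductal metaplasia, in which digestive-enzyme-producing cells lose their secretory programme and take on duct-like features. When a gene is disrupted by targeting, the altered chromosome carries a stretch of donor DNA on both sides of the target, which is shortened by recombination at each backcross but seldom lost. Coding genes inside such a stretch can differ between knockout and control mice by strain of origin, and they are then called passenger or flanking genes. These sentences are background, and no sequence variant was read from the libraries.

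RNA was sequenced in bulk from 6 primary acinar cultures after 3 days in Matrigel and Waymouth's medium with dexamethasone. The 2 WT libraries carried intact Dkk3 (labelled 10 and 11 weeks of age), the 2 DD libraries came from untreated Dkk3-null acini (12 and 13 weeks), and the 2 DD + rDKK3 libraries came from null acini given commercial recombinant DKK3 (14 and 15 weeks). The null allele lacks exon 2, which holds the secretion signal, and is carried in every tissue. The labels gave WT 2 as female and the other 5 libraries as male. In every value below taken without the other WT library, the only control is therefore female and all null libraries are male. In those values sex cannot be told apart from genotype. Neither genotype nor treatment can be told apart from labelled age, which rose from WT to DD to DD + rDKK3. The strain background and the number of backcrosses are not given in the sources used here. The titles of the DD and DD + rDKK3 libraries share the names DD1 and DD2 without saying whether an animal was shared. The labelled ages of same-named libraries differ, at 12 and 14 weeks for DD1 and 13 and 15 weeks for DD2. Names and ages were not reconciled here. All p-values therefore measure the spread between these libraries, which may in part be technical.

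Library totals ranged from 12018473 to 19750401 counts, and the flanking genes took 0.618% to 0.767% of them. All 9 acinar markers were detected in each library, summing to between 82760 and 142200 CPM. Fibroblast markers (6 of 6 tested) summed to 654 CPM in DD 2 and 729 in DD + rDKK3 2, against 28.4 to 126 in the other 4 libraries. Macrophage markers (6 of 6 tested) summed to 183 and 143 CPM there, against 56.1 to 77.3. Most of that was Lyz2, at 133 CPM in DD 2 and 85.4 in DD + rDKK3 2. Adgre1, Csf1r and Folr2 were also highest in DD 2 and DD + rDKK3 2. Cd68 overlapped the other libraries, and Lyve1, itself a flanking gene, was lowest in DD 2 (0.941 CPM). Red cell markers stayed at or below 0.393 CPM, with Hba-a1, Hba-a2 and Hbb-bt at 0 throughout. DD 2 and DD + rDKK3 2 stood apart on the first principal component of all genes, and WT 1 on the second. In bulk RNA, fewer cells of a type and less RNA per cell cannot be told apart.

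The targeted gene was read first. Dkk3 (ENSMUSG00000030772.7, minus strand, 111715224 to 111758264) had 10 and 1 counts in the WT libraries, with 11 and 9 in those of DD and 5 each in those of DD + rDKK3. It lay below the filter, and fitted unfiltered it gave a log2 fold change of -0.32 in null against WT libraries (SE 0.665, edgeR quasi-likelihood test, Benjamini-Hochberg adjusted p 0.948). A count summed over a gene does not separate exon 2 from the rest, so these values do not check the labels.

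The promoters of the 4 genes for which the region was examined are shown first, because any difference in the flanking chromosome would have to be read against them. Each is the RefSeq reference sequence (a table built on GRCm38.p6 and matched letter for letter to GRCm39), from 250 bases before to 50 bases after the annotated start, 5′ to 3′ on the gene's own strand. The reference genome is that of C57BL/6J mice and is not the sequence of these animals. Capitals mark matches on either strand to the core motif of TEAD factors, GGAATG, or to that of the AP-1 (Fos and Jun) factors, TGANTCA.
Acsm3: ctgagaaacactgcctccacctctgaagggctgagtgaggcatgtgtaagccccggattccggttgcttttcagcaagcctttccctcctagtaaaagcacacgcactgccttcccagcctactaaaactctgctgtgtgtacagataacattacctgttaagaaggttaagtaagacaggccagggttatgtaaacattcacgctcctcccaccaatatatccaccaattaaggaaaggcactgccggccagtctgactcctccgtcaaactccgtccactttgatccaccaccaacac
Eri2: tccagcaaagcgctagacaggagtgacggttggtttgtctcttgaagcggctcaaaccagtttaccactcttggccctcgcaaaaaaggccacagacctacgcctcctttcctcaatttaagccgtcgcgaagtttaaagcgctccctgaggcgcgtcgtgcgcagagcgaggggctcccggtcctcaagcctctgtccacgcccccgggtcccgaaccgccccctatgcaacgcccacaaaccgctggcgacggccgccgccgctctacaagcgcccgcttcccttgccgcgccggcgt
Far1: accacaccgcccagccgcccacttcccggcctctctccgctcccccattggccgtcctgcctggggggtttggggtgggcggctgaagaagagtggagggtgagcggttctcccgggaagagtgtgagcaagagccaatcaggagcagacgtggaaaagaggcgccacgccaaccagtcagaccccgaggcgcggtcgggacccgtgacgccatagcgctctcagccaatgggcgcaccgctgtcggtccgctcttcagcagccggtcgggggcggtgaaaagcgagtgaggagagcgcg
Itpripl2: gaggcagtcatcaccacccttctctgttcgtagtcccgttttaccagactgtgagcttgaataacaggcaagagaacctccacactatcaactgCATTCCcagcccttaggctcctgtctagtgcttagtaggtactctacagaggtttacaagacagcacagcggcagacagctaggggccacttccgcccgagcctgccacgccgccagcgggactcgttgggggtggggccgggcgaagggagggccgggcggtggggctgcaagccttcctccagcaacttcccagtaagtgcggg

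The windows lie at chr7:119359896-119360195 (plus strand) for Acsm3, chr7:119393232-119393531 (minus strand) for Eri2, chr7:113112791-113113090 (plus strand) for Far1 and chr7:118091149-118091448 (minus strand) for Itpripl2. Itpripl2 held 1 TEAD match and the other 3 held none, and no AP-1 match was found in the 4. Of the 108 flanking genes tested, 84 had a promoter in the table. Of these, 13 (15.5%) held the TEAD motif and 6 (7.14%) the AP-1 motif, next to 14.7% and 7.81% of all 32851 promoters, and both shares were close to the general frequency. A match is a description of letters and not a bound site.

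The Dkk3-null genotype was compared with WT over all 4 null libraries, both those given recombinant DKK3 and those untreated. Of the flanking genes, 1 passed an adjusted p of 0.05 (the edgeR quasi-likelihood test, with p-values adjusted over 14738 genes by Benjamini and Hochberg), and that gene was Acsm3. Over all genes tested, 0.0543% were called (8 genes). In DD against WT the same 1 flanking gene was called, beside 0.0407% of all genes, and in DD + rDKK3 against WT again 1, beside 0.0475%. These comparisons share the WT libraries. None was called between DD + rDKK3 and DD, in the flanking genes or elsewhere (0%). There, 3 flanking genes had an unadjusted p under 0.05 (2.78%, beside 1.98% of all genes). DESeq2 called 5 genes in that comparison, none of them flanking, and gave no adjusted p for Cavin3, 1 of the 3.

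Acsm3 (ENSMUSG00000030935.16, plus strand, 119360146 to 119386736, 7.64 Mb from Dkk3) encodes a mitochondrial ligase that couples medium-chain fatty acids to coenzyme A. It had 27 and 52 counts in WT, as against 459 and 308 for DD and 413 and 316 for DD + rDKK3. In CPM it stood at 2.65 and 3.65 in WT, at 21.7 and 18.1 in DD, and at 21.8 and 17.0 in DD + rDKK3. Every null library lay far above the higher WT library, and the treated and untreated null libraries overlapped.

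Acsm3 thus rose from 3.15 ± 0.707 CPM (SD, n = 2) in WT to 19.7 ± 2.48 CPM (SD, n = 4) in the null libraries, 6.16-fold, a log2 fold change of 2.62 (SE 0.232, edgeR adjusted p 0.0105). In the separate comparisons it rose on the log2 scale by 2.64 in DD (SE 0.248, edgeR adjusted p 0.0223) and by 2.60 in DD + rDKK3 (SE 0.248, edgeR adjusted p 0.0206), both against the same WT libraries. Between DD + rDKK3 and DD its log2 fold change was -0.04 (SE 0.217, edgeR adjusted p 1). With only WT 2 as control the log2 fold change was 2.44 (edgeR adjusted p 0.122), and with only WT 1 it was 2.89 (adjusted p 0.0711), and neither was a call. WT 2 is labelled female and the null libraries male, so the value without WT 1 cannot separate sex from genotype. Summing the null libraries that share a name gave a log2 fold change of 2.63 (edgeR adjusted p 0.0968).

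The other members of its family lie beside it and were nearly silent. Acsm1, Acsm2, Acsm4 and Acsm5 encode further medium-chain acyl-CoA synthetases and lie 7.40 to 7.57 Mb from Dkk3. Acsm2 had no count in any library, and the other 3 stayed below the filter. Of the 5 medium-chain acyl-CoA synthetases, Acsm3 alone was tested.

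Eri2 (ENSMUSG00000030929.18, minus strand, 119367902 to 119393281), which encodes an exoribonuclease-family protein, lies across Acsm3 on the opposite strand. The genes overlap over 18835 bases, and 2132 exonic bases belong to both, which is 42.4% of the exonic length of Acsm3 and 21.6% of that of Eri2 (GENCODE M39). Counting was strand-specific according to the study's methods. Eri2 stood at 4.72 and 6.46 CPM in WT, at 12.2 and 10.9 in DD, and at 11.0 and 10.2 in DD + rDKK3. All 4 null libraries lay above both WT libraries.

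The log2 fold change of Eri2 in null against WT was 0.97 (SE 0.20, unadjusted p 0.0014, edgeR adjusted p 0.312), so it was not called. The gene and its neighbour did not move in proportion. There were 1.78 and 1.77 Eri2 counts for each Acsm3 count in WT, as against 0.562 and 0.601 for DD and 0.504 and 0.598 for DD + rDKK3. The null ratios were all below the WT ratios and close to one another. How many Eri2 counts came from reads of the shared stretch was not tested, since the deposited counts are summed per gene.

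Far1 (ENSMUSG00000030759.17, plus strand, 113113041 to 113170718, 1.41 Mb away) encodes the peroxisomal reductase that makes fatty alcohols for ether lipids. It stood at 23.3 and 17.1 CPM in WT, at 32.5 and 61.3 in DD, and at 27.6 and 38.0 in DD + rDKK3. All 4 null libraries lay above WT, and DD 2 lay far above the others. The log2 fold change in null against WT was 0.96 (SE 0.289, edgeR adjusted p 0.312), and it was 0.58 (adjusted p 0.231) without DD 2 and DD + rDKK3 2, the libraries with the highest fibroblast and macrophage sums. The part of those cells in the value was not tested. A stretch of 669 bases of its transcript, 9.71% of the whole, matched Fgd4 on another chromosome at 97.8%, so some of its reads could be placed on either gene.

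Itpripl2 (ENSMUSG00000095115.3, minus strand, 118084334 to 118091198, 6.35 Mb away), a membrane protein named after its likeness to an inositol trisphosphate receptor interacting protein, gave another order of groups. It stood at 23.9 and 24.4 CPM in WT, at 36.3 and 44.4 in DD, and at 23.9 and 32.2 in DD + rDKK3. Both DD libraries lay above both WT libraries, while DD + rDKK3 1 lay between the WT values. Against WT its log2 fold change was 0.74 for DD (SE 0.191, edgeR adjusted p 0.586) and 0.22 for DD + rDKK3 (SE 0.192, edgeR adjusted p 0.558). Between DD + rDKK3 and DD it was -0.52 (SE 0.188, unadjusted p 0.0253, edgeR adjusted p 1). None of these was called, and the value for DD + rDKK3 against WT was -0.0065 without DD + rDKK3 2. Without DD + rDKK3 1 the value between DD + rDKK3 and DD was -0.34.

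**Figure D1:**
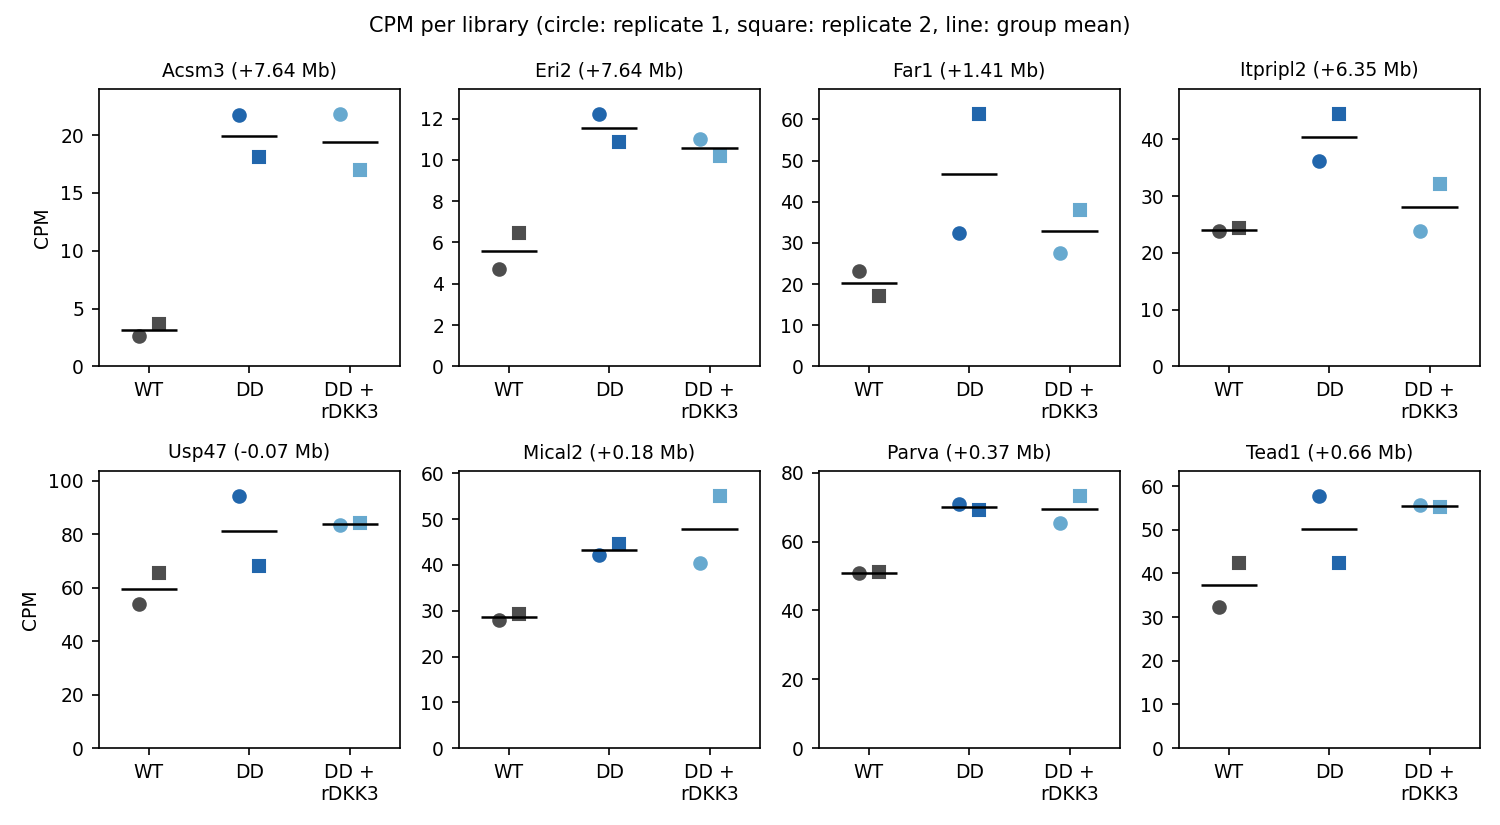
CPM of 8 flanking genes in each library (vertical axes from 0, 1 panel a gene, with the distance from Dkk3 in its title); circles are replicate 1, squares replicate 2 and lines group means. Acsm3 lies between 17.0 and 21.8 CPM in the 4 null libraries and at 2.65 and 3.65 in WT, whereas Itpripl2 in DD + rDKK3 1 lies between its WT values and Far1 in DD 2 reaches 61.3.

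The genes closest to Dkk3 were described next, because they are the least likely to be separated from it by recombination. Within 1 Mb, 6 genes were tested. Of these, 4 had an unadjusted p under 0.05 in null against WT, all with higher values in the null libraries and all without overlap, beside 7.48% of all genes higher at that p and 13% wholly above WT. None was called at an adjusted p under 0.05, and without WT 1 the count at the unadjusted p was 2.

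Usp47 (ENSMUSG00000059263.10, 111622711 to 111710868), a deubiquitinase, ends before Dkk3 begins, 0.07 Mb between the midpoints. It stood at 53.9 and 65.4 CPM in WT, at 94.3 and 68.0 in DD, and at 83.2 and 84.1 in DD + rDKK3. DD 2 lay just above WT 2, and the other null libraries lay well above. Its log2 fold change in null against WT was 0.46 (SE 0.173, edgeR adjusted p 0.312).

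Mical2 (ENSMUSG00000038244.15, 111825063 to 112012313, 0.182 Mb away), a monooxygenase that oxidises actin and so loosens filaments, had the smallest p of these 6. It stood at 27.9 and 29.3 CPM in WT, at 42.2 and 44.6 in DD, and at 40.5 and 55.1 in DD + rDKK3. The lowest null library was well above the higher WT library. The log2 fold change was 0.67 (SE 0.158, unadjusted p 0.00319, edgeR adjusted p 0.312), and DESeq2 called it (0.66, adjusted p 0.0299). Leaving out 1 library gave 0.56 to 0.78.

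Parva (ENSMUSG00000030770.16, 112026712 to 112190899, 0.372 Mb away) encodes alpha-parvin, which links integrin-linked kinase to actin at focal adhesions. It stood at 50.8 and 51.1 CPM in WT, at 71.0 and 69.3 in DD, and at 65.5 and 73.3 in DD + rDKK3. The replicates lay close together in each group and all null libraries lay above WT. The log2 fold change was 0.45 (SE 0.125, edgeR adjusted p 0.312), with 0.42 to 0.50 on leaving out 1 library. Its partner Ilk, 6.35 Mb away on the other side and chosen here after its values were seen, stood at 122 and 108 CPM in WT and 87.0 to 117 in the null libraries, which overlapped.

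Tead1 (ENSMUSG00000055320.19, 112278525 to 112506014, 0.656 Mb away) encodes a transcription factor that binds DNA for the Hippo-pathway coactivators YAP and TAZ. It stood at 32.4 and 42.3 CPM in WT, at 57.7 and 42.5 in DD, and at 55.6 and 55.2 in DD + rDKK3. DD 2 was level with WT 2, and the other 3 null libraries were above. The log2 fold change was 0.49 (SE 0.176, edgeR adjusted p 0.312).

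The remaining genes within 1 Mb were low. Galnt18, a glycosyltransferase 0.512 Mb below Dkk3, stood at 0.688 and 1.97 CPM in WT and 1.00 to 2.06 in the null libraries, with a log2 fold change of 0.05 (SE 0.477, edgeR adjusted p 0.968). That value turned negative without WT 1, at -0.47. Rassf10, a Ras-association protein 0.818 Mb above Dkk3 and named after its values were seen, stood at 1.97 and 2.46 CPM in WT and 0.699 to 2.17 in the null libraries, which overlapped.

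Along the whole 20 Mb, an unadjusted p under 0.05 in null against WT was found for 26 of the 108 flanking genes, or 24.1%, beside 16% of all genes tested. Of these, 20 had higher values in the null libraries (18.5%, beside 7.48% of all genes), and 6 lower values (5.56%, beside 8.49%). The 20 include Acsm3, Eri2, Far1 and Itpripl2, for which the region was examined. Among the 870 coding genes tested elsewhere on chromosome 7, 9.31% were higher and 8.74% lower by the same rule. These shares are counts of linked genes in the same libraries and carry no test. With the library size as the only scaling, 29 were higher and 4 lower (26.9% higher, beside 14.5% of all genes), since that scaling moved the median of all genes to 0.20. The count of 26 was 9 without WT 1 (8.11%, beside 4.96%), 17 without DD + rDKK3 1 (15.5%, beside 10.5%) and 15 without DD + rDKK3 2 (13.8%, beside 5.66%).

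Both the shares and the background were smaller in the separate comparisons, which share the WT libraries. For DD against WT the count was 15 (13.9%, beside 8.26%), and 10 of these were higher (9.26%, beside 4.27%) and 5 lower (4.63%, beside 3.99%). For DD + rDKK3 against WT it was 23 (21.3%, beside 15.3%), of which 17 were higher (15.7%, beside 7.34%) and 6 lower (5.56%, beside 8%). These counts turned on single libraries, and for both comparisons the share of all genes at that p moved in the same direction. The 15 for DD fell without WT 1 or without DD 1 and rose without WT 2. The 23 for DD + rDKK3 fell without DD + rDKK3 2, without WT 1 and without DD + rDKK3 1. In the last of these, higher and lower genes were nearly equal in number. Each of these fits left 1 library in a compared group, so their counts are not given. In DD + rDKK3 against DD, where both groups are Dkk3-null, none was higher (beside 0.597%) and 3 were lower (2.78%, beside 1.38%). That total of 3 also turned on single libraries, and without DD 2 it fell while the share of all genes rose.

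Counted without a model, the 4 null libraries lay wholly above both WT libraries in 20 flanking genes (18.5%, beside 13% of all genes) and wholly below in 10 (9.26%, beside 14.7%). Together that is 27.8%, which is level with the 27.7% of all genes. The median log2 fold change of the 108 genes was 0.05 in null against WT, next to 0.02 over all genes, with a middle range from -0.15 to 0.36.

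**Figure D2:**
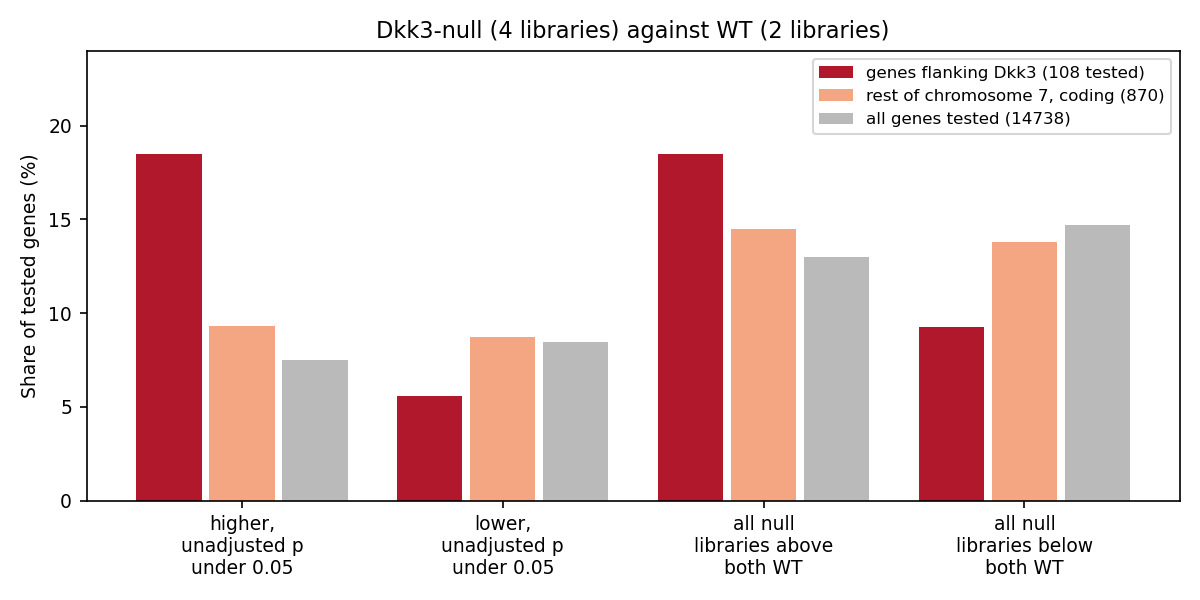
Share of tested genes, in percent, that were higher or lower in the 4 null libraries than in WT at an unadjusted p under 0.05, or that did not overlap WT, for the genes flanking Dkk3, the rest of chromosome 7 and all genes. The bar for higher flanking genes reaches 18.5% against 9.31% and 7.48%, while the bars for lower flanking genes are the shortest of their sets.

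By position, the 4 genes from 0 to 1 Mb above Dkk3 had the highest median log2 fold change in null against WT, 0.47, with 3 higher at an unadjusted p under 0.05 (beside 7.48% of all genes). From 1 to 2.5 Mb above, the median of 9 genes was 0.34, and from 2.5 to 5 Mb that of 5 genes was 0.35. From 5 to 7.5 Mb it was 0.06 over 14 genes and from 7.5 to 10 Mb 0.02 over 23, although the last stretch holds Acsm3 and Eri2.

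On the low-coordinate side the medians were 0.26 over 2 genes from 0 to 1 Mb, 0.11 over 16 from 1 to 2.5 Mb and 0.03 over 6 from 2.5 to 5 Mb. Beyond, they were -0.01 over 15 genes from 5 to 7.5 Mb and -0.15 over 14 from 7.5 to 10 Mb. The medians were thus largest next to Dkk3 on both sides, from few genes. On the low side the 2 genes were Usp47 (0.46) and Galnt18 (0.05). Galnt18 had few counts and ran from -0.47 to 1.03 on leaving out 1 library, so that median is uncertain. In DD + rDKK3 against DD, the medians of the same stretches lay between -0.24 and 0.07.

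**Figure D3:**
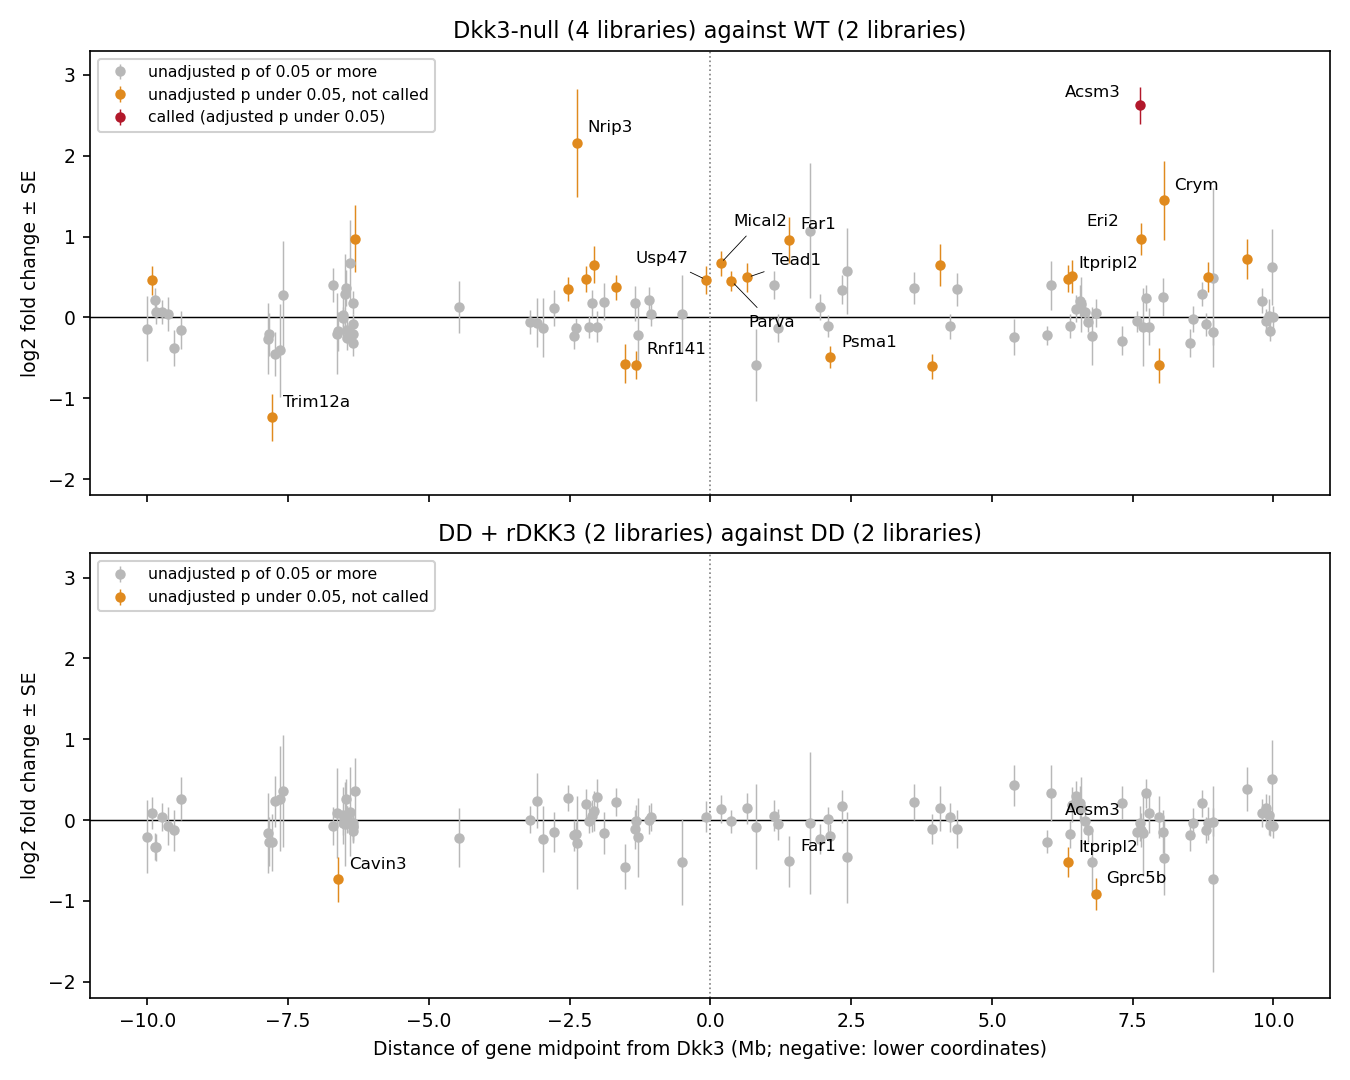
Log2 fold change with its SE (vertical axis) of the 108 flanking genes tested against the distance of the gene's midpoint from Dkk3 in Mb (horizontal axis), for the 4 null libraries against WT (top) and for DD + rDKK3 against DD (bottom). Acsm3 stands at 2.62 and 7.64 Mb in the top panel and at -0.04 in the bottom one, and Usp47, Mical2, Parva and Tead1 lie between 0.45 and 0.67 around 0.

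Other genes with higher values in the null libraries lay on both sides and had fewer counts. Nrip3, a nuclear receptor interacting protein 2.37 Mb below Dkk3, had 2 and 4 counts in WT, or 0.197 and 0.281 CPM, and 0.615 to 1.88 CPM in the null libraries. Its log2 fold change of 2.16 (SE 0.667, edgeR adjusted p 0.312) rests on those few WT counts. Crym, a thyroid hormone binding protein 8.06 Mb above Dkk3, had 7 and 4 counts in WT, or 0.688 and 0.281 CPM, and 1.00 to 1.71 CPM in the null libraries (log2 fold change 1.45, SE 0.490, edgeR adjusted p 0.312). It was 2.18 without WT 1 and 0.90 without WT 2.

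More abundant genes showed smaller values. Usp31, a deubiquitinase-family protein 9.54 Mb above, stood at 5.99 and 11.1 CPM in WT and 12.4 to 16.7 in the null libraries (0.73, SE 0.246, edgeR adjusted p 0.312). Zfp143, a zinc-finger activator of transcription 2.06 Mb below, stood at 5.01 and 8.15 CPM in WT and 9.29 to 11.2 in the null libraries (0.65, SE 0.230, edgeR adjusted p 0.312). Plekha7, a protein of epithelial adherens junctions 4.08 Mb above, stood at 7.66 and 14.8 CPM in WT and 16.1 to 19.7 in the null libraries (0.65, SE 0.256, edgeR adjusted p 0.312). In all 3 genes WT 1 was the lowest library, and leaving it out brought them to 0.38, 0.37 and 0.28. Without WT 2 they were 1.26, 1.06 and 1.21.

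Nup98, Denn2b, Dennd5a and Cdr2 had log2 fold changes of 0.35 to 0.50 and no overlap. Nup98 is a nucleoporin, and Denn2b and Dennd5a act on Rab GTPases of membrane traffic. Nup98 in DD 2 (37.0 CPM) was barely above WT 2 (36.7 CPM). The value of Nup98, 0.46, was 0.26 without WT 1 and 0.73 without WT 2, and that of Denn2b went from 0.35 to 0.23 without WT 1.

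The 6 genes with lower null values at an unadjusted p under 0.05 were Trim12a, Adm, Rnf141, Psma1, 1110004F10Rik and Tmem159. Trim12a, of the TRIM5 family of antiviral factors, stood at 5.40 and 3.51 CPM in WT, at 1.80 and 2.35 in DD, and at 1.58 and 1.83 in DD + rDKK3. All null libraries lay below WT. Its log2 fold change was -1.23 (SE 0.290, edgeR adjusted p 0.312). Its transcript matched Trim5 at 96.9% and Trim12c at 96.4% over part of its length, so the counts of these copies are uncertain. Trim12c, 7.74 Mb below Dkk3, had overlapping libraries, at 4.42 and 3.16 CPM in WT and 2.27 to 3.34 in the null libraries.

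Psma1, a subunit of the proteasome core 2.13 Mb above Dkk3, stood at 125 and 105 CPM in WT, at 88.2 and 87.1 in DD, and at 78.3 and 74.1 in DD + rDKK3. The 3 groups did not overlap one another. Its log2 fold change in null against WT was -0.49 (SE 0.132, edgeR adjusted p 0.312), and DESeq2 called it (-0.50, adjusted p 0.0455). Rnf141, a RING-finger protein 1.31 Mb below, stood at 147 and 123 CPM in WT and 78.5 to 102 in the null libraries (-0.59, SE 0.169, edgeR adjusted p 0.312).

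1110004F10Rik, 3.94 Mb above, stood at 92.4 and 75.4 CPM in WT and 49.7 to 65.1 in the null libraries (-0.61, SE 0.157, edgeR adjusted p 0.312; DESeq2 adjusted p 0.0485). Tmem159, a lipid droplet assembly factor 7.97 Mb above, had 36.1 CPM in WT 1 and 21.9 in WT 2, and 16.4 to 21.5 in the null libraries. WT 2 was level with DD 2, and without WT 1 its log2 fold change was -0.18 instead of -0.59, and without WT 2 it was -0.91. Adm, the vasodilator peptide adrenomedullin, stood at 10.9 and 8.36 CPM in WT, at 8.90 and 6.88 in DD, and at 6.39 and 4.20 in DD + rDKK3. DD overlapped WT, and both DD + rDKK3 libraries were below.

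Another 5 genes lay wholly below WT in the null libraries without reaching that p. Taf10, a subunit of the general transcription factor TFIID, stood at 276 and 216 CPM in WT and 189 to 214.5 in the null libraries (-0.32, SE 0.154, edgeR adjusted p 0.334), and at -0.11 without WT 1. Timm10b, a chaperone of mitochondrial protein import, stood at 22.7 and 20.7 CPM in WT and 16.6 to 19.6 in the null libraries (-0.26, SE 0.143, edgeR adjusted p 0.370). Arl6ip1, which shapes the endoplasmic reticulum, stood at 51.6 and 46.4 CPM in WT and 36.6 to 46.2 in the null libraries, so that DD 2 was level with WT 2. The log2 fold change of Arl6ip1 was -0.22 (SE 0.121, edgeR adjusted p 0.364), and -0.13 without WT 1. Trim21, a cytosolic antibody receptor, stood at 4.32 and 4.71 CPM in WT and 3.22 to 3.93 in the null libraries (-0.37, SE 0.224, edgeR adjusted p 0.399). Arfip2, which binds small GTPases, stood at 70.9 and 69.6 CPM in WT, with all null libraries lower and the lowest at 59.1 (-0.15, SE 0.125, edgeR adjusted p 0.524).

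**Figure D4:**
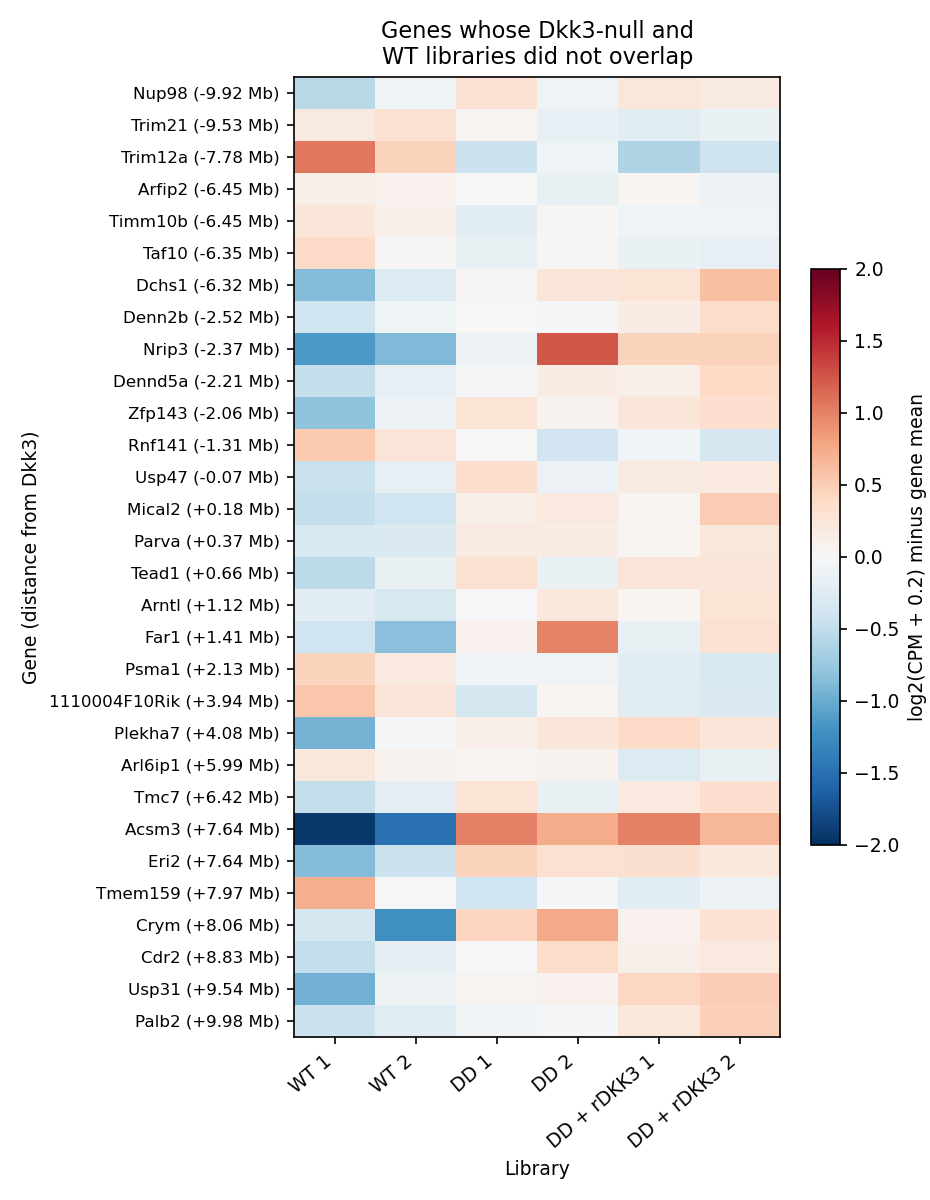
Log2 of CPM plus 0.2, minus the gene's mean over the 6 libraries (colour), for the 30 flanking genes whose null and WT libraries did not overlap, ordered by position from -9.92 to 9.98 Mb from Dkk3. Acsm3 shows the deepest contrast between WT and null libraries, and Nrip3 and Far1 are highest in DD 2.

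Genes were also grouped by role, and the counts below use the unadjusted p under 0.05, since Acsm3 was the only flanking gene called. The role lists did not hold every flanking gene of a role. By that rule 7.48% of all genes tested were higher in the null libraries and 8.49% lower, which is the background for each count. Adhesion and cytoskeleton genes had the highest median among the groups with several genes tested. Of 8 tested, 4 had an unadjusted p under 0.05 with higher null values (Mical2, Parva, Plekha7 and Dchs1), none lower, with a median log2 fold change of 0.55 next to 0.02 over all genes. Dchs1, a protocadherin of planar polarity, was at 0.491 and 0.843 CPM in WT and 1.09 to 1.72 in the null libraries. Spon1, an extracellular matrix protein of this group that was looked at after its values were seen, stood at 9.94 CPM in DD 2 and 9.36 in DD + rDKK3 2, against 1.47 to 3.86 in the other 4 libraries. DD 2 and DD + rDKK3 2 also held the high fibroblast sums, whose part in this value was not tested. Of 5 transcription factors tested, 2 were higher by this rule (Tead1 and Zfp143), with a median of 0.40. The clock factor Arntl (BMAL1) stood at 9.04 and 8.36 CPM in WT and 10.4 to 12.6 in the null libraries, without overlap (0.40, SE 0.173, edgeR adjusted p 0.315).

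Of 10 genes tested that were listed under lipids and phosphoinositides, 3 were higher (Far1, Itpripl2 and Sbf2) and 1 lower (Tmem159), with a median of 0.28. Itpripl2 is described here only by its likeness to another protein, so its place in that list is uncertain. In this and the next groups the background is again 7.48% higher and 8.49% lower. Of 15 genes of RNA processing, transcription and translation, 3 were higher (Eri2, Zfp143 and Nup98), with a median of 0.04. Of 10 cell cycle and protein turnover genes, 2 were higher (Usp47 and Cdr2) and 1 lower (Psma1), with a median of 0.09. That list did not hold Usp31, which was higher by this rule, or Rnf141, which was lower. The TRIM family genes listed had 9 tested, 1 lower (Trim12a) and a median of -0.26. Of the secreted peptides only Adm was tested, and none of the 5 beta-like globins reached the filter.

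Of 13 genes listed under secretory and membrane traffic, 1 was higher (Denn2b), and the median was -0.10. The list did not hold Dennd5a, also of membrane traffic, which was higher by the same rule (0.47). Gp2, the main glycoprotein of the zymogen granule membrane, was by far the most abundant flanking gene per length, at a mean of 818 CPM per kilobase of exon against 128 for the next, Nucb2. It stood at 2080 and 1629 CPM in WT, at 1559 and 1264 in DD, and at 1652 and 1627 in DD + rDKK3, and DD + rDKK3 overlapped WT while both DD libraries lay below the other 4. In null against WT, Gp2 had a log2 fold change of -0.29 (SE 0.178, edgeR adjusted p 0.414), with -0.082 without WT 1 and -0.45 without WT 2. Per length, Acsm3 ranked 48 of 108 at 2.82 CPM per kilobase over all libraries, with 0.627 for WT, 3.96 for DD and 3.86 for DD + rDKK3. Eri2 ranked 76.

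The other abundant members were Eif4g2, Eif3f, Nucb2 and Ipo7. Eif4g2, a translation factor 1.06 Mb below Dkk3, stood at 878 and 818 CPM in WT and 809 to 914 in the null libraries. Eif3f, also of translation initiation, stood at 322 and 286 CPM in WT and 269 to 316 in the null libraries. Nucb2, a calcium-binding protein of the secretory pathway, stood at 480 and 389 CPM in WT and 463 to 666 in the null libraries (0.35, SE 0.204, edgeR adjusted p 0.390). The value of Nucb2 was 0.53 without WT 1 and 0.21 without WT 2. The importin Ipo7 stood at 408 and 420 CPM in WT and 392 to 527 in the null libraries. In these 4 genes the libraries of the genotypes overlapped.

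DD + rDKK3 was compared with DD within the null genotype, where treatment and labelled age cannot be told apart. Gprc5b, an orphan receptor of the G protein coupled family 6.85 Mb above Dkk3, stood at 36.8 and 30.2 CPM in DD, 20.5 and 15.1 in DD + rDKK3, and 24.7 and 22.3 in WT. Both DD libraries were above WT and both DD + rDKK3 libraries below. Its log2 fold change between DD + rDKK3 and DD was -0.91 (SE 0.199, unadjusted p 0.00204, edgeR adjusted p 1). Cavin3, a coat protein of caveolae, stood at 8.66 and 14.9 CPM in DD and 6.44 and 7.69 in DD + rDKK3 (-0.74, SE 0.284, edgeR adjusted p 1). Its value was -0.29 without DD 2. Gprc5b, Cavin3 and Itpripl2 were the 3 flanking genes with an unadjusted p under 0.05. The small GTPase Rhog stood at 50.7 and 44.0 CPM in DD and 37.5 and 37.4 in DD + rDKK3 (-0.34, SE 0.165, edgeR adjusted p 1), without overlap.

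At the edges of the window no gene was called. Just inside, Xndc1 stood at 0.792 to 1.55 CPM and Dctn5 at 23.2 to 27.0 CPM, with WT and null libraries overlapping. Xntrpc was at 0. Palb2 stood at 0.393 and 0.492 CPM in WT and 0.568 to 0.914 in the null libraries, wholly above. Just outside, Il18bp stood at 2.16 and 1.76 CPM in WT and 0.757 to 1.43 in the null libraries. Rnf121 stood at 62.2 and 49.6 CPM in WT and 38.0 to 48.8 in the null libraries. Both lay wholly below WT (log2 fold changes -0.74 and -0.45, edgeR adjusted p 0.321 and 0.312), beside 14.7% of all genes. Plk1 stood at 1.12 to 2.94 CPM with overlap, and Ern2 was at 0. The small number of libraries and, for genes with few counts, depth limited how small a difference could be seen. The mean count of a tested flanking gene ran from 8.17 to 26720, with a median of 351, and 24 of the 108 had a mean under 50.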

How the data were processed

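Bulk RNA-seq of 6 acinar cultures was analysed. The authors aligned strand-specific paired reads with STAR (2.7.9a, per the submitters' processing notes) to GRCm39 and GENCODE M32 and deposited raw counts per gene, with exon counts summed and secondary alignments ignored. Reads that match several copies can shift between genes. Spike-in entries (92, all at 0) were left out. No columns of the authors' own comparisons were used.

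From the counts, genes were filtered (edgeR filterByExpr, minimum count 10, total 15), scaled by TMM and fitted with the edgeR 4.0.16 quasi-likelihood model (R 4.3.3) over 3 groups, with a common biological coefficient of variation of 0.215 and 3 residual degrees of freedom. P-values are two-sided and Benjamini-Hochberg adjusted over 14738 genes. CPM used TMM-scaled totals. The null comparison is the mean of DD and DD + rDKK3 minus WT. Procedures were tested on simulated data. Similar transcripts were searched with blastn 2.17.0+ (at least 95% identity over 100 bases). Alternatives were DESeq2 1.42.0, limma-voom (limma 3.58.1), other scalings and filters, replicate blocks and left-out libraries.

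The members, role lists and tests were chosen with earlier results of these data known. Genes named are Acsm3, Eri2, Far1, Itpripl2 and Dkk3, called members, the 10 smallest p-values in each direction among genes without overlap, the 5 smallest in DD + rDKK3 against DD, the 3 nearest on each side, the 5 most abundant, those at the window edges and up to 3 of each role list. Dchs1, Sbf2, Spon1, Ilk and Rassf10, where outside this rule, were named after their values were seen. Replicates differed by more than counting noise in each group, so none was counted as a duplicate.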

Additional observations from a re-analysis of the deposited data

Results flagged for a closer look

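Among 40 flanking genes examined for a library far from the others of its genotype, 2 had one, and chance gives about 1 in 20 groups. Taf10, a subunit of the general transcription factor TFIID, stood at 214.5 CPM in DD 2 against 189 to 193 CPM in the other 3 null libraries. Tead1 stood at 42.5 CPM in DD 2 against 55.2 to 57.7 CPM in the other 3. DD 2 is also a library with high fibroblast and macrophage marker sums, whose part in these values was not tested. Gprc5b was singled out because both DD libraries lay above and both DD + rDKK3 libraries below WT, with a log2 fold change of -0.91 between DD + rDKK3 and DD. Whether the effects against WT differ was tested by that comparison alone, which had an unadjusted p of 0.00204 and an edgeR adjusted p of 1.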

How the results depend on the processing

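In null against WT the number of flanking genes called was 1, and it was 12 without the low-count filter, 3 with DESeq2 (Mical2, Psma1 and 1110004F10Rik, with no adjusted p given for Acsm3 and an unadjusted p of 1.97e-20), 2 with a replicate block within the null libraries (Acsm3 and Far1), 0 with same-named null libraries summed, and 0 to 1 on leaving out 1 library. In DD against WT it was 7 without the filter, 2 with the block within the null libraries, and 0 to 1 on leaving out 1 library, and in DD + rDKK3 against WT it was 10 without the filter, 0 with limma-voom, 0 with the replicate block over all libraries and 0 to 1 on leaving out 1 library. In DD + rDKK3 against DD it was 1 (Gprc5b) without the filter. All genes called in null against WT numbered 8, 954 without the filter, 126 with DESeq2 and 125 with the block within the null libraries. Without the filter these numbered 528 in DD against WT, 788 in DD + rDKK3 against WT and 73 in DD + rDKK3 against DD. The cause was not tested. Without the filter 147 flanking genes were tested in place of 108, and the share of all genes called was not taken there. The flanking genes called without the filter therefore have no background to be read against. At an unadjusted p under 0.05 in null against WT, 21.8% of the 147 were found, beside 13.8% of all genes. With the replicate block over all libraries, Acsm3 had a log2 fold change of 2.61 in null against WT (adjusted p 0.0332). Replicate numbers were not taken as a pairing over all groups. Between WT and DD, and between WT and DD + rDKK3, the deviations of same-numbered libraries correlated over genes at -0.39 and -0.25. Between DD and DD + rDKK3 they correlated at 0.65, so same-named null libraries may not be independent. The main fit treated all 4 null libraries as separate. Non-overlapping flanking genes numbered 54 with same-named libraries summed, 32 to 71 on leaving out 1 library and 57 without DD 2 and DD + rDKK3 2, an alternative chosen after seeing the data. All of these counts have fewer libraries to separate, and the share of all genes was not counted under these settings. They therefore have no background to be read against. The higher share of flanking genes against that of all genes was 7.21% against 2.67% without WT 1 and 22.5% against 12.3% without WT 2. Small values that changed sign on leaving out 1 library were Acsm3 in DD + rDKK3 against DD (-0.24 to 0.12), Far1 there (-0.92 to 0.015), Itpripl2 in DD + rDKK3 against WT (-0.0065 to 0.42) and, in null against WT, Galnt18 (-0.47 to 1.03), Eif4g2 (-0.0039 to 0.11), Eif3f (-0.13 to 0.054) and Gprc5b (-0.058 to 0.17). Without DD 2 and DD + rDKK3 2, Galnt18 (-0.24) and Eif3f (0.014) changed sign, and with library size alone Arfip2 (0.034) and Eif3f (0.14) did. Of the values of named genes under these alternatives, 789 kept direction and side of the threshold. Fits of only the groups compared, and summed libraries, could not give every comparison. With 2 WT libraries, 1 of them set apart, small differences were not detectable. Every result without WT 1 sets male null libraries against a female control, so sex and genotype cannot be told apart in it.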
